A study of Mus musculus with 8 samples.

Results

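The genes described here occupy a block of mouse chromosome 5 from 34 to 40 Mb (build mm9). All non-control array probes whose position in the files fell in that window were taken, whatever their signal. This gave 169 probes on 178 spots, out of 55681 probes on the array, and the probes named 74 genes. The window was chosen by the large differences of Cpz, Ppp2r2c and Slc2a9 between the groups on these same arrays, so their values are given as a description without a test. The other 166 probes, called neighbours below, entered by position alone.

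RNA came from MAM326, a mouse mammary cancer cell line, which a cell sorter had split by fluorescence into GFP-positive and GFP-negative cells, with 4 one-colour Agilent arrays of each group. Cells of both groups were sorted 2 days after seeding in the same medium with serum and without a further agent, and 20 ng of total RNA was labelled per array. According to the series, there were 4 separate experiments, each at another passage, but which array came from which experiment is not given, and p-values measure only the spread between these arrays. The labels do not say what drives GFP in these cells, and all cells derive from 1 line. Levels are log2 of the processed signal relative to the array's 75th percentile, so a level of 0 is that percentile. Levels of different probes are not compared, and a difference is GFP-positive minus GFP-negative on the log2 scale.

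All 6 epithelial markers looked at (Epcam, Cdh1, Krt8, Krt18, Krt5 and Krt14) were well above background on all arrays by their brightest probe. Their 6 differences were positive, from 0.18 to 1.18 with a median of 0.44, and 0 passed the threshold. The summed linear level of 7 fibroblast markers ran from 3.75 to 59.4 on the GFP-positive arrays and from 14.0 to 167 on the GFP-negative arrays. Of these 7 markers 6 were measured, 5 had a negative and 1 a positive difference, and 0 passed the threshold. Among the defining markers, Lum (fibroblast), Lyz2 (leukocyte), and Cdh5 and Tek (endothelial) were not well above background on any array. Others of these lists were above background on all 8 arrays by their brightest probe, namely Col1a1 and Col1a2 (fibroblast), Csf1r, Itgam, Cd14 and Cd3e (leukocyte) and Kdr (endothelial), and Pecam1 (endothelial) was on 3 of each group. Cd68, of the leukocyte list, rose (1.00 ± 0.11, adjusted p = 0.00514, limma), while Ptprc was above background on 1 GFP-positive and 0 GFP-negative arrays. All 8 arrays lay on 1 slide in 2 rows, with GFP-positive replicates 1 and 3 and GFP-negative replicates 2 and 4 in row 1. Row 2 held GFP-positive replicates 2 and 4 and GFP-negative replicates 1 and 3. A difference that changes between rows therefore cannot be told apart from a split of replicates 1 and 3 against 2 and 4.

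Genes that lie side by side on a chromosome can share enhancers, a chromatin domain or a change in copy number, and can also be regulated one by one. The block is not a family: its genes encode proteins of unrelated function. Cpz encodes a secreted metallocarboxypeptidase that removes basic residues from the end of proteins and carries a cysteine-rich domain like that of the Wnt receptors. Ppp2r2c encodes a regulatory B subunit of protein phosphatase 2A best known from brain, and Slc2a9 encodes a membrane transporter of the facilitated sugar transporter family known for carrying urate.

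Each of the 3 genes was read by a single probe, so its value rests on the following 60-base sequences, written as in the files (mm9: Cpz chr5:35844869-35844928, minus strand; Ppp2r2c chr5:37346000-37346059, plus strand; Slc2a9 chr5:38740566-38740625, minus strand).
Cpz: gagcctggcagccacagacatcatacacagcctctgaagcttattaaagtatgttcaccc
Ppp2r2c: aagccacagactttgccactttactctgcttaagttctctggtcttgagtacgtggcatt
Slc2a9: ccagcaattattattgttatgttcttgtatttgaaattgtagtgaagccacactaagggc

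The promoters of the 3 genes and of Psapl1, the neighbour with the largest difference, are shown because these genes were higher in the same arrays. Each RefSeq window (GRCm38.p6) holds 250 bases before and 50 after the gene's start and is written in the direction of transcription. Capitals mark matches, on either strand, to the p53 half-site consensus and to TGAGTCA. The windows are chr5:35525577-35525876 (Cpz, minus), chr5:36868260-36868559 (Ppp2r2c, plus), chr5:38483336-38483635 (Slc2a9, minus) and chr5:36203771-36204070 (Psapl1, plus).
Cpz: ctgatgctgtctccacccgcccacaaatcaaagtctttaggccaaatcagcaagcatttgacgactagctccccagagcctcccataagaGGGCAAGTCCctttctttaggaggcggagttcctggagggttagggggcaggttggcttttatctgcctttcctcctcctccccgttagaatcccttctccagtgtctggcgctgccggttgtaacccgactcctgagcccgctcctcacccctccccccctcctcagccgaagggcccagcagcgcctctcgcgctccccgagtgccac
Ppp2r2c: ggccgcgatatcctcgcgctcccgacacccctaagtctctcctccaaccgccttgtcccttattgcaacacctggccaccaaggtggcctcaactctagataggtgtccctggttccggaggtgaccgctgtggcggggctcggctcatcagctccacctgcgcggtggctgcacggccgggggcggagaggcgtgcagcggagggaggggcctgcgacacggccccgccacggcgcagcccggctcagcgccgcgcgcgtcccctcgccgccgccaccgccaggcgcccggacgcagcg
Slc2a9: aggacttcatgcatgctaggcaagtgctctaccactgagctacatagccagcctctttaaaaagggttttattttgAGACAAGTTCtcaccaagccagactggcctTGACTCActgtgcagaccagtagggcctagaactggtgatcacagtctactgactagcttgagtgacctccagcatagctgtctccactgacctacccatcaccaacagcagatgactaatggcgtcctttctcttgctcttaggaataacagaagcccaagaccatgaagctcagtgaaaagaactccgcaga
Psapl1: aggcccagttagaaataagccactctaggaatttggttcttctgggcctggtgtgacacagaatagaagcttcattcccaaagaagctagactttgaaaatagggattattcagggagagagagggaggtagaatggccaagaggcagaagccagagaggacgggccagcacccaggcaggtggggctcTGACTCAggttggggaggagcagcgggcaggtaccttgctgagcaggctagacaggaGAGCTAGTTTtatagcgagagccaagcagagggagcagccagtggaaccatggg

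The 4 windows differed in composition. The Ppp2r2c window held 36 CG dinucleotides and that of Cpz 13, against a median of 7 over 32851 mouse promoter windows, while the Psapl1 window held 3 and the Slc2a9 window 2. A p53 half-site match stood 160 bases before the start of Cpz, 174 before that of Slc2a9 and 4 before that of Psapl1, and none was in the Ppp2r2c window. This consensus was found in 8.36% of all windows and in 8 of the 74 windows of the block (10.8%). These 74 windows belong to 64 genes, as a gene can have several starts. Without Cpz, Ppp2r2c and Slc2a9 the consensus was in 6 of 71 windows. The second motif stood 144 bases before the start of Slc2a9 and 61 before that of Psapl1. It was present in 5.20% of all windows and in 6 of the 74 (8.11%), and the motifs did not overlap in the windows shown. The windows of Rgs12, Acox3 and Man2b2, the other neighbour genes past the threshold, are not shown and held no p53 half-site match. Among them, 1 Rgs12 window held the second motif. Such matches are letters in a window and say nothing on binding.

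Cpz, Ppp2r2c and Slc2a9 were detected on all 4 GFP-positive arrays and were at or near background in GFP-negative cells. Cpz stood at -1.36, -1.32, -1.94 and -1.20 in GFP-positive replicates 1 to 4, and at -5.12, -5.35, -4.91 and -4.56 in GFP-negative replicates 1 to 4. The lowest GFP-positive array was far above the highest GFP-negative array. The difference was 3.53 ± 0.21 (SE). Only 1 of the 4 GFP-negative arrays showed the probe well above background, so no fold is stated.

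Ppp2r2c stood at -3.34, -3.69, -2.53 and -3.69 in GFP-positive cells and at -6.75, -7.40, -6.73 and -7.43 in GFP-negative cells, again without overlap. GFP-positive replicate 3 was the highest, and each GFP-negative value lay below the lowest level called above background on its array. None of the GFP-negative arrays showed the probe well above background, so the difference of 3.76 ± 0.30 is not turned into a fold. Against the lowest level called above background on each GFP-negative array, the mean GFP-positive level of Ppp2r2c was 3.63-fold higher. A probe that is not called can lie above that lowest level, so this fold is not a strict bound.

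Slc2a9 stood at -3.23, -3.13, -3.23 and -3.55 in GFP-positive cells and at -5.99, -7.09, -6.64 and -6.65 in GFP-negative cells. The GFP-positive arrays lay close together, the groups did not overlap, and 0 of the 4 GFP-negative arrays were above background. The difference was 3.31 ± 0.22. Against the lowest level called above background on each GFP-negative array, the mean GFP-positive level of Slc2a9 was 3.70-fold higher, again not a strict bound.

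The size of these differences depended on how background was handled. With a normexp correction and an offset of 50, which compresses dim signals, the differences were 1.49 for Cpz, 0.79 for Ppp2r2c and 0.64 for Slc2a9. Within slide row 1, with 2 arrays against 2, they were 3.30, 4.48 and 3.64, and within row 2 they were 3.75, 3.04 and 2.97, in the same order of genes.

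The 3 genes are not adjacent. The probes of Cpz and Ppp2r2c lie 1501 kb apart and those of Ppp2r2c and Slc2a9 1395 kb apart, with 17 and 16 protein-coding genes between them in the RefSeq order. Of the 68 protein-coding genes from Tacc3 to Clnk in that order, 65 had a probe.

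Most neighbours had small differences. Of the 166 neighbour probes, 100 were well above background on all 8 arrays, 35 on none, and 114 on at least 4, which was the requirement for the test. Each of these 114 was above background on at least 2 arrays of each group, so none was kept through 1 group alone. Their median difference was -0.04, against -0.06 over all 27590 probes tested, and 99 of the 114 (86.8%) lay within 0.5 of 0, against 89.3% of all. Positive differences were found for 51 (44.7%, against 40.1% of all probes tested) and negative ones for 63.

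Of the 114 neighbours, 6 passed an adjusted p of 0.05 in limma, all higher in GFP-positive cells, which is 5.26%. Over all probes 2.00% passed, 1.52% higher and 0.478% lower. The 6 probes belong to 4 genes, Rgs12, Acox3, Psapl1 and Man2b2, so they are not independent of each other. No neighbour passed as lower by this fit, while 9 were lower and 16 higher at an unadjusted p under 0.05. That is 21.9% of the neighbours, against 21.7% of all probes. With array weights, and within slide row 1 alone, 2 probes passed as lower, and with normexp or with an intensity trend 1 did. The count moved with the arrays used: it was 3 with slide row as a block (2.63%, against 1.21% of all probes), 10 within row 1 (8.77%, against 4.63%) and 0 within row 2 (limma). Over all probes 0 passed within row 2 too, where 16 neighbours (14.0%) and 10.8% of all probes had an unadjusted p under 0.05. With array weights 8.77% of neighbours and 7.66% of all probes passed, and with a replicate block 0.877% and 0.797%. It was 1 without GFP-positive replicate 1, and 2, 3 and 2 without GFP-negative replicates 2, 3 and 4.

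**Figure D1:**
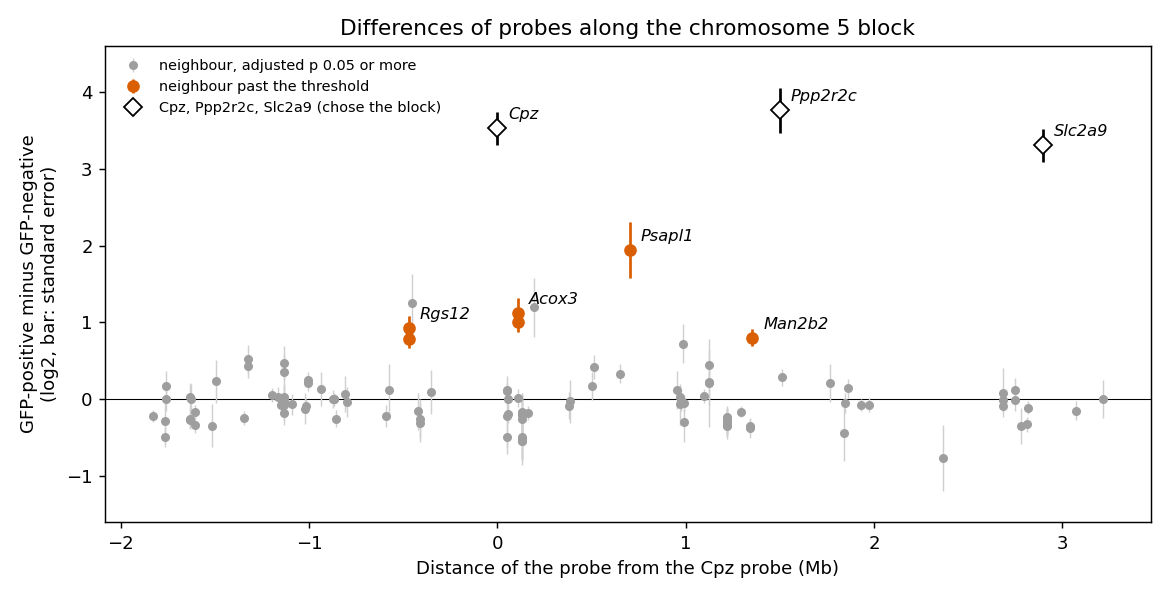
Difference (GFP-positive minus GFP-negative, log2, bars: standard error) of the 117 kept probes of the block against distance from the Cpz probe in Mb. Open diamonds are the 3 genes that chose the block (3.53, 3.76 and 3.31), orange points the 6 neighbours past the threshold, and grey points the other neighbours, most of them near 0.

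The groups did not overlap for 8 neighbour probes that were higher in GFP-positive cells (7.02%, against 4.89% of all probes tested) and for 5 that were lower (4.39%, against 10.9%). The higher ones were the 3 probes of Rgs12, 2 of Acox3, Psapl1, Man2b2 and 1 probe of Tnip2. The lower ones were probes of Tacc3, Fgfr3, Nelfa, Haus3 and Mrfap1. Tnip2 and Haus3 are named here after their values were seen.

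The nearest protein-coding genes with a probe on each side of the 3, in the RefSeq order, give the closest view. On the 2 sides of Cpz, Hmx1, a homeobox gene, was not above background on any array, and Trmt44, a tRNA methyltransferase gene, averaged -0.11 ± 0.15 in GFP-positive cells and -0.12 ± 0.19 in GFP-negative cells (SD, n = 4). The Trmt44 difference was 0.01, with a 95% interval from -0.27 to 0.28, although its probe lies 55.1 kb from that of Cpz.

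On the 2 sides of Ppp2r2c, Man2b2 rose and Wfs1 did not pass. The non-coding gene Ppp2r2cos lies nearer than Man2b2, with its probe 81.2 kb from that of Ppp2r2c, and was not above background on any array. Wfs1 encodes wolframin, a membrane protein of the endoplasmic reticulum, and its probe lies 11.4 kb from that of Ppp2r2c. It averaged 1.83 ± 0.16 in GFP-positive cells and 1.54 ± 0.13 in GFP-negative cells (SD, n = 4), a difference of 0.28 with a 95% interval from 0.03 to 0.53 (adjusted p = 0.184, limma). Jakmip1, the next gene beyond Wfs1, had 3 probes, of which 1 was above background on a single GFP-positive array.

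On the 2 sides of Slc2a9, the dopamine receptor gene Drd5 was not above background on any array, and Wdr1, whose product helps take actin filaments apart, averaged 4.44 ± 0.22 in GFP-positive cells and 4.59 ± 0.10 in GFP-negative cells (SD, n = 4). The Wdr1 difference was -0.15, with a 95% interval from -0.42 to 0.13. Otop1, 46.5 kb from Slc2a9, and the non-coding gene 4930487D11Rik, 4.87 kb from it, were not above background on any array either. Between Ppp2r2c and Slc2a9 the 16 kept neighbours had differences from -0.77 to 0.28, and none passed the threshold.

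**Figure D2:**
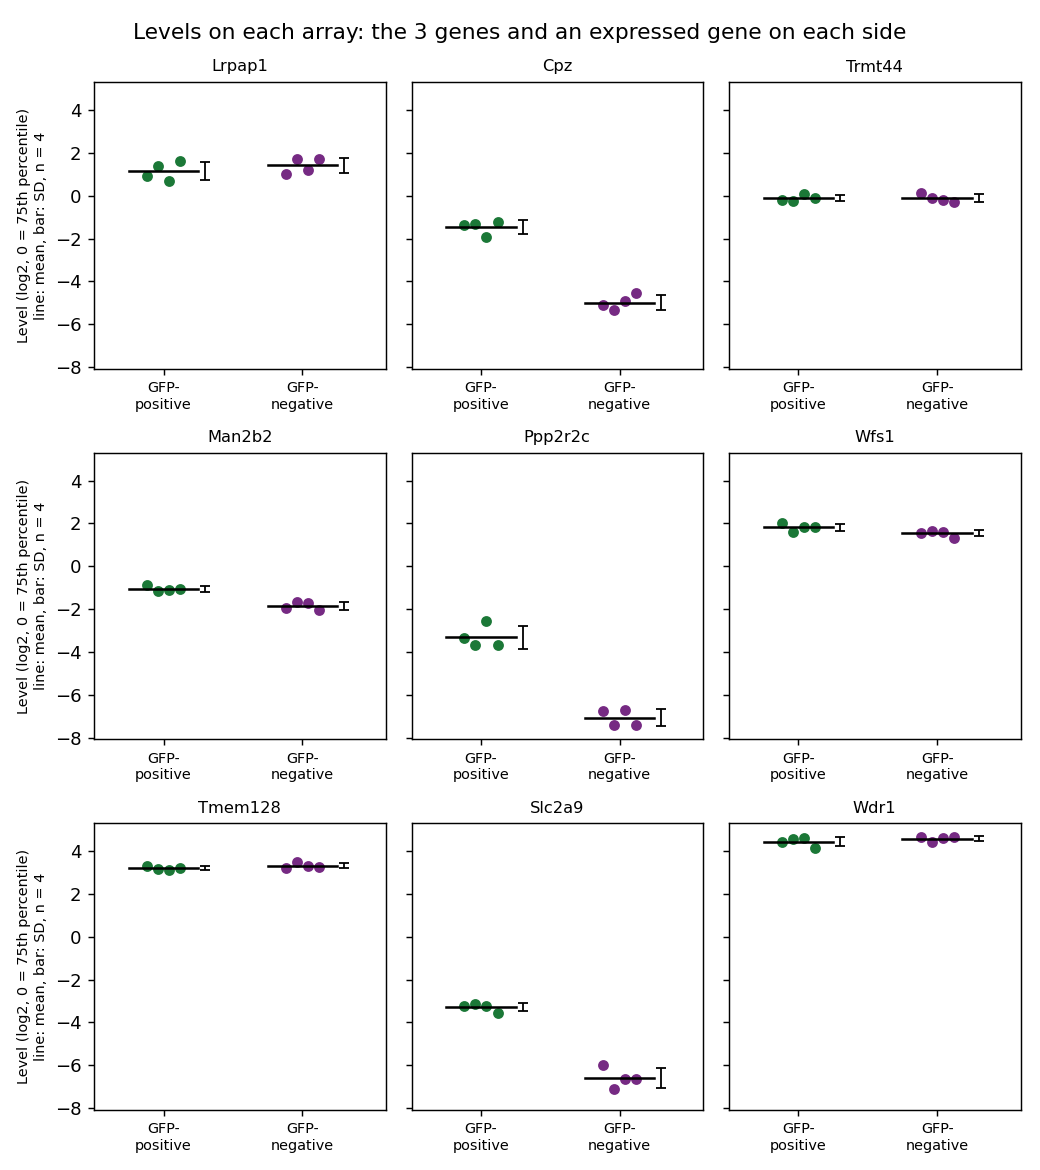
Levels on each array (log2, 0 = the array's 75th percentile) of Cpz, Ppp2r2c and Slc2a9 (middle column) with an expressed gene on the proximal (left) and distal (right) side, GFP-positive left of GFP-negative, line: mean, bar: SD, n = 4. The groups are far apart in the middle column, apart by 0.80 for Man2b2, and overlap for Lrpap1, Trmt44, Wfs1, Tmem128 and Wdr1.

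Rgs12, Hgfac and Dok7 are among the signalling and protease genes on the proximal side of Cpz. Rgs12 encodes a regulator that shortens G protein signalling, and its 3 probes start 1148 and 104 bases apart, about 470 kb from Cpz. The brightest stood at 4.23, 4.03, 4.39 and 3.99 in GFP-positive cells, against 3.58, 3.39, 3.28 and 3.25 in GFP-negative cells. No GFP-negative array reached the lowest GFP-positive one. It rose by 0.78 ± 0.12, or 1.72-fold (adjusted p = 0.0193, limma). A second probe rose by 0.93 ± 0.16 (adjusted p = 0.0291), and the third had a difference of 0.89 ± 0.19 and did not pass (adjusted p = 0.0576), but did under 6 of the alternatives (adjusted p from 0.0228 to 0.0433). With slide row as a block the adjusted p of the first was 0.0385 and of the second 0.0574.

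Hgfac, which encodes the protease that activates hepatocyte growth factor, stood at -3.28, -3.74, -2.60 and -4.47 in GFP-positive cells, against -4.27, -4.82, -5.02 and -5.01 in GFP-negative cells. The groups overlapped by 1 array, and the difference of 1.26 ± 0.38 did not pass (adjusted p = 0.118, limma), but did with array weights (0.0445) and within slide row 1 (0.0353). Its probe was above background on 3 GFP-positive and 2 GFP-negative arrays. Dok7, an adaptor of muscle synapse formation, had a difference of -0.16 and did not pass.

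Proximal to Rgs12 the block held 41 kept probes, with differences from -0.49 to 0.53 and a median of 0.00, of which 0 passed. They include Fgfr3, a fibroblast growth factor receptor, whose brightest probe averaged -1.66 ± 0.13 in GFP-positive cells and -1.17 ± 0.23 in GFP-negative cells (SD, n = 4). Its difference of -0.49 ± 0.13 did not pass (adjusted p = 0.0945, limma), but did with normexp (0.0454) and with array weights (0.0425). Mxd4, which encodes a partner of Max, had differences of 0.43 and 0.53 on its 2 probes, and the chromatin gene Nsd2 had differences from -0.27 to 0.03 on its 5.

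Acox3, which encodes a peroxisomal acyl-CoA oxidase, lies on the distal side of Cpz and gave different answers from its 3 probes. These are listed in chromosome order (mm9, plus strand), at chr5:35952411-35952470, chr5:35954432-35954491 and chr5:35956215-35956274, so that the reader can place them on transcripts.
Acox3, first: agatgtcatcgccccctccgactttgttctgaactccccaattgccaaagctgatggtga
Acox3, second: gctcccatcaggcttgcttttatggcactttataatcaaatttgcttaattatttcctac
Acox3, last: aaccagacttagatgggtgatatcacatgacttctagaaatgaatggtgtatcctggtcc

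The first probe of Acox3 stood at 0.99, 0.83, 0.52 and 0.99 in GFP-positive cells, against 0.76, 0.71, 0.86 and 0.89 in GFP-negative cells. The groups overlapped, and the difference was 0.02 with a 95% interval from -0.25 to 0.29. The second, 2021 bases further, stood at 0.52, -0.22, 0.16 and -0.09 in GFP-positive cells, against -1.18, -1.14, -0.64 and -1.19 in GFP-negative cells, and rose by 1.13 ± 0.19 (adjusted p = 0.0300, limma).

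The third probe, another 1783 bases on, stood at 1.27, 1.06, 1.23 and 0.88 in GFP-positive cells, against 0.02, 0.30, -0.07 and 0.17 in GFP-negative cells. It rose by 1.00 ± 0.12, or 2.00-fold (adjusted p = 0.00687, limma), by 1.01 within slide row 1 and 0.99 within row 2. Its call held whichever of the 8 arrays was left out, and with slide row as a block (adjusted p = 0.00325), but not within row 2 alone (adjusted p = 0.306) or with a replicate block. The 95% intervals of the first and last probes, -0.25 to 0.29 and 0.73 to 1.28, do not meet. The difference between probes was not itself tested. Among 20 neighbour genes with several kept probes, Acox3 was the 1 gene whose probes differed by more than 0.5, with a range of 1.11, and the next widest was Nsd2 with 0.30.

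**Figure D3:**
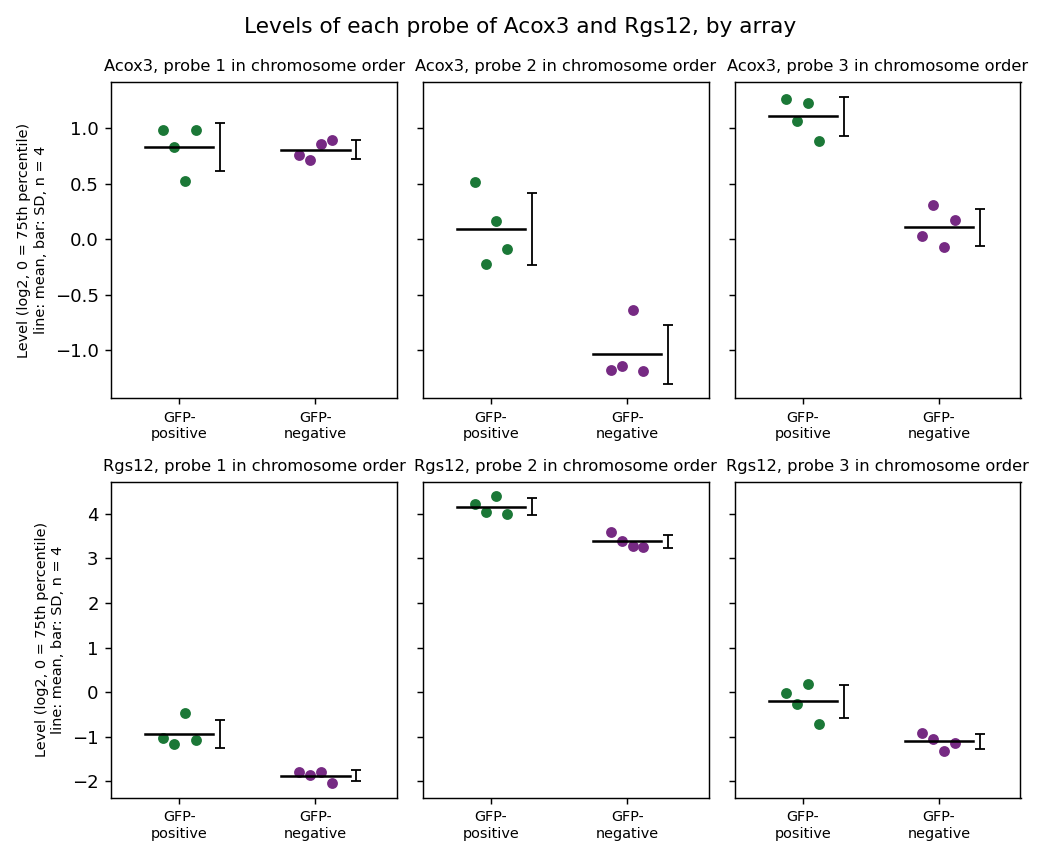
Levels on each array (log2, 0 = the array's 75th percentile) of the 3 probes of Acox3 (top) and of Rgs12 (bottom) in chromosome order, GFP-positive left of GFP-negative, line: mean, bar: SD, n = 4. The groups overlap on the first Acox3 probe and are apart on the other 5 panels.

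The other genes close to Cpz on the distal side were mixed. Htra3, a secreted serine protease gene, averaged -2.03 ± 0.10 in GFP-positive cells and -1.85 ± 0.11 in GFP-negative cells (SD, n = 4) and did not pass (adjusted p = 0.285, limma). 4931431C16Rik, between Trmt44 and Acox3, was above background on 2 GFP-positive and 0 GFP-negative arrays and was therefore not tested. It stood at -4.30, -5.36, -4.05 and -4.92 in GFP-positive cells and at -6.74, -6.28, -6.72 and -6.27 in GFP-negative cells, without overlap. It was the 1 probe among the 52 dropped neighbours whose GFP-positive values all lay above the GFP-negative ones.

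Sh3tc1, 195 kb from Cpz, stood at 0.56, 0.22, 1.11 and -0.18 in GFP-positive cells, against 0.12, -1.49, -0.62 and -1.11 in GFP-negative cells. The groups overlapped, and the difference of 1.20 ± 0.38 did not pass (adjusted p = 0.132, limma). It was 2.13 within slide row 1, where it passed (adjusted p = 0.0287), and 0.27 within row 2.

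Psapl1, a gene related to prosaposin, the precursor of lysosomal saposins, had the largest difference among the neighbours. Its probe (chr5:36548795-36548854, mm9, plus strand) lies 704 kb from that of Cpz. It stood at 2.53, 2.00, 2.54 and 1.49 in GFP-positive cells, against 0.92, -0.55, 0.55 and -0.14 in GFP-negative cells. The groups did not overlap, with GFP-positive replicate 4 and GFP-negative replicate 1 nearest to each other. Psapl1 rose by 1.94 ± 0.36, or 3.85-fold (adjusted p = 0.0416, limma). The difference was 2.88 within slide row 1 and 1.01 within row 2, and with row as a block the adjusted p was 0.0767. For Psapl1, as for Sh3tc1, the contrast between rows cannot be told apart from a split of replicates 1 and 3 against 2 and 4.

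Man2b2, an alpha-mannosidase gene whose probe lies 148 kb from that of Ppp2r2c (chr5:37198235-37198294, mm9, minus strand), stood at -0.88, -1.17, -1.12 and -1.05 in GFP-positive cells, against -1.96, -1.69, -1.73 and -2.05 in GFP-negative cells. Both groups were tight and did not overlap. It rose by 0.80 ± 0.11, or 1.74-fold (adjusted p = 0.0129, limma), by 0.87 within slide row 1 and 0.73 within row 2. Mrfap1, between Man2b2 and Bloc1s4, went the other way on both probes, with differences of -0.37 and -0.35 that did not pass (adjusted p = 0.163 and 0.0843). The second passed with array weights (0.0363) and with an intensity trend (0.0382).

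The calls of the 4 genes differed in how far they rested on single arrays. The Man2b2 call was lost without GFP-positive replicate 1, without a filter on dim probes, with a replicate block and within each slide row alone (adjusted p = 0.0836 in row 1). The call of the brightest Rgs12 probe was lost without that array and without each of GFP-negative replicates 2, 3 and 4, and that of the other called Rgs12 probe without 6 of the 8 arrays in turn. The second Acox3 probe and Psapl1 each kept their call without 2 of the 8 arrays. Over all alternatives the adjusted p ran from 0.00252 to 0.306 for the last Acox3 probe, from 0.00666 to 0.407 for Man2b2, from 0.00558 to 0.452 for the brightest Rgs12 probe and from 0.0162 to 0.447 for Psapl1, with no change of sign.

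The largest negative difference was that of Msx1, a homeobox gene between Ppp2r2c and Slc2a9. It stood at -2.05, -1.36, -2.65 and -1.08 in GFP-positive cells, against -1.87, -0.55, -1.25 and -0.39 in GFP-negative cells. The groups overlapped, and the difference of -0.77 ± 0.43 did not pass (adjusted p = 0.336, limma). It was -1.88 within slide row 1, where it passed (adjusted p = 0.0318), and 0.34 within row 2. Here too, row cannot be told apart from a split of replicates 1 and 3 against 2 and 4. Crmp1, which encodes a protein of axon growth, had a difference of -0.43, with -1.04 in row 1 and 0.17 in row 2, and Lyar, a nucleolar protein gene, one of -0.35.

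**Figure D4:**
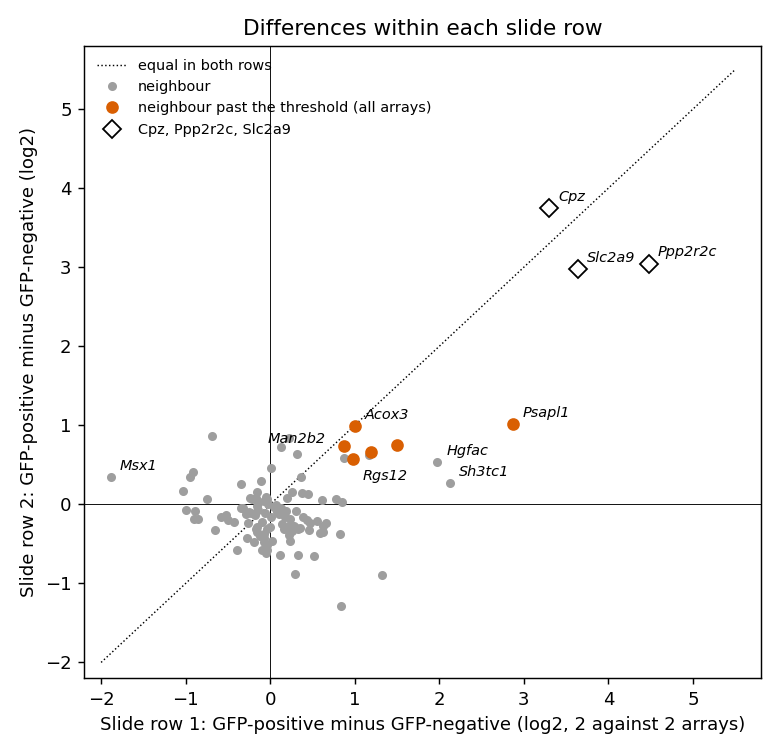
Difference (GFP-positive minus GFP-negative, log2) within slide row 2 against that within slide row 1, each with 2 arrays against 2, for the kept probes of the block. Row 1 holds GFP-positive replicates 1 and 3 and GFP-negative replicates 2 and 4, and row 2 the others. All orange points and diamonds are positive in both rows, Psapl1, Hgfac and Sh3tc1 lie further out in row 1, and Msx1 is at -1.88 in row 1 and 0.34 in row 2.

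Within slide row 1 the summed fibroblast markers stood at 15.6 and 3.75 on the GFP-positive arrays, against 167 and 117 on the GFP-negative arrays. Within row 2 they stood at 36.5 and 59.4 on the GFP-positive arrays, against 14.0 and 97.3 on the GFP-negative arrays. The groups were apart in row 1 and overlapped in row 2. In both groups the sums of replicates 1 and 3 lay below those of replicates 2 and 4. Row 1 sets GFP-positive replicates 1 and 3 against GFP-negative replicates 2 and 4, so row and this split cannot be told apart. Whether these markers have a part in the differences of Psapl1, Sh3tc1, Hgfac or Msx1 was not tested. Fewer cells of a type and less RNA per cell cannot be told apart in such bulk samples.

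By role, a neighbour gene was read by whichever kept probe was brightest. Among 3 measured genes listed as proteases or other enzymes, besides Cpz, 1 rose (Man2b2), where 1.52% of all probes passed as higher. Their differences ran from -0.18 to 1.26. Among 9 chromatin and transcription genes none passed, with a median of -0.01. Among 5 measured signalling and receptor genes 1 rose (Rgs12), against the same 1.52% of all probes. Adra2c and Drd5 were not above background on any array.

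Of 8 measured cytoskeleton and cilia genes none passed and 6 were negative, with differences from -0.43 (Crmp1) to 0.17 (Afap1). Of 8 genes of organelles and the secretory path none passed by the brightest probe, which for Acox3 is the one that did not differ. The mitochondrial genes Letm1 and Grpel1 had differences of 0.01 and 0.03 on that probe, and Sorcs2, a sorting receptor gene, had 0.42. Of the RNA genes, Nop14 had -0.25 and Trmt44 0.01. Where 0 passed, the counts are those of limma over all probes.

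Of the 43 neighbour probes for intervals that the files name by position only, 31 were kept and 0 passed, with a median difference of -0.18. For the interval chr5:35975265-35982561 (mm9), just distal of Acox3, 4 probes of the forward strand had differences from -0.55 to -0.49 and 4 of the reverse strand from -0.25 to -0.17. The forward probes had a median of -0.90 within slide row 1 and -0.14 within row 2. For chr5:37051650-37110575, proximal to Man2b2, all 5 reverse probes were kept, with differences from -0.34 to -0.22, and 0 of 5 forward probes were.

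The edges of the window were set by position. Tacc3, the first gene inside, had a difference of -0.22, and Tmem129, the nearest gene outside, one of 0.00. On the far side, Zfp518b, the last kept gene inside, had 0.01 and Hs3st1, the nearest outside, had 0.29. Clnk, the last named gene inside, was not above background on any array. Of 143 kept probes from 28 to 34 Mb, 0 passed as higher and 1 as lower (Eif2b4), and of 27 from 40 to 46 Mb none passed. Over the rest of chromosome 5, 1.16% passed as higher and 0.669% as lower.

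The families of the 3 genes were read over the whole array, each gene by its brightest kept probe. Of 13 other measured subunits of protein phosphatase 2A, none passed the threshold (limma), 12 had a negative and 1 a positive difference, and the median was -0.19, against -0.06 over all probes. Over all probes tested 40.1% had a positive difference. The catalytic subunit genes Ppp2ca and Ppp2cb had differences of -0.19 and -0.11. Of the other B subunits, Ppp2r2a had -0.26 and Ppp2r2d -0.32 (adjusted p = 0.103 and 0.0564), and Ppp2r2b was not kept.

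Of 6 other measured carboxypeptidase genes of the N and E group none passed, with differences from -0.29 (Cpxm1) to 0.88 (Cpn1). Of 9 other measured sugar transporter genes, 1 passed, as lower (Slc2a3), where 0.478% of all probes passed as lower. Slc2a3, a glucose transporter gene, averaged -3.42 ± 0.36 in GFP-positive cells and -2.10 ± 0.28 in GFP-negative cells (SD, n = 4). Its fall was 1.31 on the log2 scale (adjusted p = 0.0230, limma). Slc2a4 had a difference of 1.11 and did not pass (adjusted p = 0.153), and Slc2a1, the widely expressed glucose transporter gene, had -0.07.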

How the data were processed

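Each deposited file held the scanner output of 1 array. Per the submitters' processing notes the spots were read with Agilent Feature Extraction, and per the file headers release 10.7.3.1 was run under protocol GE1_107_Sep09. The intensity values used, deposited by the authors, were the processed signal, from which that program had subtracted background, and the uncorrected spot mean and local background for a check. The sources used here do not give later steps of the authors. Flags for background and outliers (other values) are per the file headers.

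From these, log2 of the processed signal was set relative to each array's 75th percentile, spots of one probe were averaged, outlier spots left out, and a probe kept if 4 or more of the 8 arrays showed it well above background (27590 of 55681). On each array 45.1% to 57.4% of probes were well above background, and no spot was saturated. The number of arrays limits the precision. GFP-positive minus GFP-negative was fitted per probe with limma 3.58.1 in R 4.3.3 (files read with data.table, version 1.17.8), two-sided, with Benjamini-Hochberg adjustment over all kept probes and a threshold of 0.05. Errors are standard errors of the fit or, for levels, SDs. The steps were tested on simulated data. Accessions of 49.4% of probes matched RefSeq (GRCm38.p6), used for symbols, gene order and promoters; other probes kept the file's name.

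Some genes of the lists are not reported here. The members, the gene lists and the rule for named genes were chosen with earlier results of these data known. The rule took the 3 genes of the label, the 5 nearest genes on each side of each, every gene past the threshold, the 5 largest differences in each direction, the edge genes and the members of 6 role lists. Same-numbered arrays did not deviate together (correlations -0.02, 0.08, 0.03 and 0.16), so numbers were not used as pairs. GFP-positive replicate 3 correlated at 0.57 with GFP-negative replicate 1, and 4 with 2 at 0.62. The values were 0.40 for 1 with 3 and 0.30 for 2 with 4. Replicates 1 or 3 of one group correlated negatively with replicates 2 or 4 of the other, from -0.51 to -0.15. Replicates 1 and 3 thus deviated against 2 and 4 in both groups, and slide row as a block does not take out that split. Whether arrays that deviate together share an experiment is not given, and the main fit is unpaired. The alternatives were quantile normalization, normexp, other filters, 1 probe per gene, array weights, an intensity trend, blocks of replicate or slide row, each row alone, a narrower window and leaving out each array.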

Additional observations from a re-analysis of the deposited data

Results flagged for a closer look

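Among 128 sets of 4 arrays (64 probes of named genes, each in 2 groups), 4 held an array whose gap to the nearest other was above Dixon's critical share of the range (3.12%, while chance gives about 5%). The second probe of Acox3 was at -0.64 in GFP-negative replicate 3, against -1.19 to -1.14 in the other GFP-negative arrays, and still lay below all GFP-positive arrays. Tada2b was at -2.22 in GFP-negative replicate 2, against -1.94 in each of the others. A probe of Stx18 was at 2.76 in GFP-negative replicate 1, against 2.91 to 2.93. Crmp1 was at -2.49 in GFP-positive replicate 4, against -3.82 to -3.68 in the other GFP-positive arrays.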

How the results depend on the processing

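The number of neighbour probes past the threshold was 6. It was 1 without a filter on dim probes (0.602%, against 0.287% of all probes), 3 with 1 probe per gene (4.29%, against 2.55%), 10 with array weights (8.77%, against 7.66%), 3 with slide row as a block (2.63%, against 1.21%), 10 within row 1 (8.77%, against 4.63%) and 0 within row 2 (as over all probes). Leaving out each array gave 1 to 5 probes (0.877% to 4.39%, against 0.656% to 1.59%). The narrower window from Cpz to Slc2a9 held 4 of its 63 kept neighbours (6.35%, against 2.00% of all probes). The remaining alternatives, apart from a replicate block, gave 6 to 8 (5.26% to 7.02%, against 1.83% to 4.89%). By their deviations the arrays did not pair by replicate number, as no array correlated best with its own number. With a replicate block the count was 1 (0.877%, against 0.797%). The filter tests fewer probes, and a block or a smaller set of arrays leaves fewer degrees of freedom. Why the count changed was not tested for any alternative. The median neighbour difference stayed between -0.12 and 0.05.

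The Cpz difference was 1.49 with normexp and 3.41 to 3.69 without each array. That of Ppp2r2c was 0.79 with normexp, 4.48 and 3.04 within rows 1 and 2, and 3.50 to 3.89 without each array. That of Slc2a9 was 0.64 with normexp and 3.14 to 3.51 without each array. All stayed positive. Normexp with an offset of 50 adds that offset to every spot, which by construction compresses dim signals on the log2 scale. Keeping probes above background on all 8 arrays leaves none of the 3 genes. Each gene has 1 probe, and signal over background limits the GFP-negative levels of all 3.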

Other observations

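Among the neighbours that were not kept, some probes were high on a single array, and those given here are named after their values were seen. Cytl1, a cytokine-like gene, was at -0.95 in GFP-positive replicate 2, while the other GFP-positive arrays lay at -7.07, -4.99 and -6.71 and the GFP-negative arrays between -7.44 and -4.45. A probe without a gene name, 3.29 Mb distal of Cpz, lay between -7.69 and -6.36 on the GFP-positive arrays and at -1.15 in GFP-negative replicate 1. A reverse-strand probe of the interval chr5:35492530-35492959 was at -1.55 in GFP-negative replicate 3. The other GFP-negative arrays lay between -7.51 and -6.51 on it, and the GFP-positive arrays between -7.20 and -4.32.

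The hexamer GGGCGG, on either strand, was found in 51 of the 74 promoter windows of the block (68.9%), which belong to 64 genes, and in 35.7% of all mouse windows.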
